A study of Mus musculus with 64 samples.

Results

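Cmss1, Smyd3, Gmds, Slc39a11, Immp2l and Pard3b are 6 protein-coding genes whose DNA stretches over very long distances while their exons are short. They were picked because their counts were lower in macrophages exposed to indole-3-carbinol (I3C) than in vehicle-treated macrophages, so that difference is described here and not tested. They are 6 of 55487 genes in the count files and 6 of the 14537 genes that passed a filter on low counts, which all 6 passed. After 20 h of activation, the level of Cmss1 with I3C averaged 34.6% of its level with vehicle in Ahr+/+ cells and 56.1% in Ahr-/- cells.

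The libraries hold the mRNA of bone marrow-derived macrophages (BMMs), which are macrophages grown from bone marrow in medium with supernatant of L929 cells. Cells came from Ahr+/+ mice, females of the strain C57BL/6JRj, or from Ahr-/- mice, which lack a functional aryl hydrocarbon receptor (AhR) and came from another supplier before they were backcrossed in-house, so genotype and origin of the mice cannot be told apart. Mice were 8 to 12 weeks old, with 4 mice per genotype, and the labels do not tie a replicate number to a mouse. BMMs were exposed for 6 h to 1 µM benzo[a]pyrene (BaP), 10 µM I3C or the vehicle dimethyl sulfoxide (DMSO) at 0.01%, and then activated with 10000000 heat-killed Salmonella Enteritidis (hk S.E.) per ml for 3 h or 20 h. Unactivated BMMs received DMSO and no hk S.E. Genotype, time point and these 4 conditions gave 16 groups of 4 libraries. The p-values set a difference against the spread between these libraries. Unless a replicate block is named, they leave out that libraries of the same replicate number were more alike within a genotype.

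AhR is a transcription factor of the cytosol that enters the nucleus after a ligand has bound, pairs with ARNT and binds DNA at sites with the core GCGTG. BaP is a combustion product and I3C a compound of cruciferous vegetables, and both are known as AhR ligands. RNA polymerase II needs far longer to cross a gene of this length than a short one, and most of the primary transcript of such a gene is intron that splicing removes. The counts analysed here took only read pairs that lay on annotated exons on the matching strand, and a pair inside an intron was counted as lying on no gene.

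In the mouse build GRCm38, Cmss1 (ENSMUSG00000022748.8), a homologue of a yeast factor linked to the small ribosomal subunit, lies at chr16:57302000-57606864 on the minus strand. Smyd3 (ENSMUSG00000055067.15), a lysine methyltransferase, lies at chr1:178951960-179518041 on the minus strand. Gmds (ENSMUSG00000038372.14), GDP-mannose 4,6-dehydratase, which starts the synthesis of GDP-fucose, lies at chr13:31819579-32338740 on the minus strand. Slc39a11 (ENSMUSG00000041654.15), a zinc transporter of the ZIP family, lies at chr11:113244853-113650079 on the minus strand. Immp2l (ENSMUSG00000056899.10), a subunit of the peptidase of the inner mitochondrial membrane, lies at chr12:41024090-41955588 on the plus strand, 5.49 Mb from Ahr itself. Pard3b (ENSMUSG00000052062.14), a scaffold protein of the cell polarity complex, lies at chr1:61638824-62642284 on the plus strand.

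From start to end, Cmss1 spanned 305 kb, Slc39a11 405 kb, Gmds 519 kb, Smyd3 566 kb, Immp2l 931 kb and Pard3b 1003 kb, where the median tested gene spanned 18.1 kb. Only 3.32% of tested genes (483) spanned 200 kb or more, and Pard3b ranked 11 and Cmss1 222 by span among them. Annotated exons covered 0.197% of the span of Immp2l, 0.645% of Gmds, 0.655% of Cmss1, 0.8289% of Slc39a11, 1.31% of Pard3b and 1.62% of Smyd3. The median tested gene had 22.7% of its span in exons. Within the long genes the counted part was therefore a small share of the locus.

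The 250 bases before the annotated start are shown for 3 of the genes, since AhR is the receptor of both ligands and these windows either hold its core motif or do not. They were taken from RefSeq (GRCm38.p6) and are written 5′ to 3′ on the strand of the gene, with any GCGTG or, for the other strand, CACGC in capitals. The 3 genes were chosen after their windows were seen. The windows lie at chr16:57606868-57607117 for Cmss1, chr12:41023840-41024089 for Immp2l and chr1:61638574-61638823 for Pard3b.
Cmss1: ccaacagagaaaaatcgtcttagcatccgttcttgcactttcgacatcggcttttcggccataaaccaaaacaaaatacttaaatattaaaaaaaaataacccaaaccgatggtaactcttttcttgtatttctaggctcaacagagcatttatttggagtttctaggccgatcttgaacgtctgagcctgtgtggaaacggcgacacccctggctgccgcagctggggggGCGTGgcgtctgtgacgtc
Immp2l: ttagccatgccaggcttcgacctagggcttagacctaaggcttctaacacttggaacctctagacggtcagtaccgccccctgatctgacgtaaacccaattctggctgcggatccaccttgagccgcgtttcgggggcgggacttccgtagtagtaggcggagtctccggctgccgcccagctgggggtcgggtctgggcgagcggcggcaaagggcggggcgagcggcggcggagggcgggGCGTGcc
Pard3b: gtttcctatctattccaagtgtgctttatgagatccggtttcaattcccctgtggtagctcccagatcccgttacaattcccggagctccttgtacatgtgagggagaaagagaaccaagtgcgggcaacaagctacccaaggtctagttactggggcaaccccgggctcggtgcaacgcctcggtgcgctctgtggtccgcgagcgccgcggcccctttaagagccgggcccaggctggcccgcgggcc
The windows of Cmss1 and Immp2l each held 1 motif, at 19 and 7 bases before the start, and those of Pard3b and of both starts of Slc39a11 held none. The window of Gmds held 2, but 196 of its bases lay inside the annotated gene. A motif was present in 28.2% of all 32851 such windows, so its presence in 3 of the 5 genes with an entry describes these letters only.

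Levels are given as CPM, the count relative to the library size after scaling by the trimmed mean of M values. The 4 genes with counts in every library (Cmss1, Smyd3, Gmds and Slc39a11) are set out first. In Ahr+/+ BMMs at 20 h, the 4 DMSO libraries with hk S.E. had Cmss1 at 2.38, 2.28, 2.36 and 2.43 CPM. The 4 I3C libraries had 0.698, 0.909, 0.792 and 0.865 CPM, so the groups did not overlap. With BaP the values were 1.58, 1.53, 1.94 and 1.86 CPM, between both. Cmss1 in Ahr-/- BMMs at 20 h was at 3.42, 3.07, 2.72 and 3.00 CPM with DMSO. With I3C it was at 1.88, 2.30, 1.06 and 1.61 CPM, again below every DMSO library but with a wider spread. With BaP it was at 2.78, 2.91, 2.60 and 2.56 CPM, which overlapped with DMSO.

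At 3 h, Cmss1 did not separate by ligand. In Ahr+/+ BMMs the DMSO libraries had 4.08, 3.68, 3.05 and 3.49 CPM and the I3C libraries 3.604, 3.25, 3.05 and 3.04 CPM. The Ahr-/- DMSO libraries lay between 2.42 and 3.799 CPM and the I3C libraries between 2.26 and 3.48 CPM. A second gene, Filip1l, lies on the other strand within the span of Cmss1. Its mean went from 40.8 CPM with DMSO to 51.6 CPM with I3C in Ahr+/+ BMMs at 20 h and from 60.8 to 56.8 CPM in Ahr-/- BMMs, while Cmss1 was lower with I3C in both.

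Smyd3 was the gene besides Pard3b with all I3C libraries below all DMSO libraries at both time points and in both genotypes. At 20 h its values in Ahr+/+ BMMs were 3.01, 3.29, 3.90 and 4.00 CPM with DMSO. With I3C they were 1.30, 1.24, 0.942 and 1.33 CPM, or 33.9% of the DMSO mean. The Ahr-/- values were 5.32, 4.35, 4.19 and 4.29 CPM with DMSO, and 2.78, 3.26, 2.33 and 2.03 CPM with I3C, or 57.3%. At 3 h the I3C mean was 74.7% of the DMSO mean in Ahr+/+ and 76.005% in Ahr-/- BMMs. The Ahr+/+ libraries at 3 h ran from 5.62 to 6.45 CPM with DMSO and from 4.25 to 5.18 CPM with I3C.

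Gmds had the lowest I3C level relative to DMSO at 20 h among the 4 better-counted genes. At 20 h, Ahr+/+ BMMs had Gmds at 3.82, 4.44, 4.87 and 5.56 CPM with DMSO. With I3C it was at 1.44, 1.53, 1.47 and 1.26 CPM, or 30.5% of the DMSO mean. Gmds in Ahr-/- BMMs was at 6.52, 7.68, 3.57 and 5.70 CPM with DMSO and at 3.52, 3.08, 1.73 and 1.69 CPM with I3C, or 42.7%. The highest I3C library of Ahr-/- lay just under the lowest DMSO library. At 3 h, Gmds overlapped between I3C and DMSO in both genotypes.

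Slc39a11 was the most abundant of the 6, also per kb of exon, and showed the smallest difference with I3C at 20 h relative to its DMSO mean. Its Ahr+/+ values at 20 h were 26.3, 24.3, 25.1 and 26.2 CPM with DMSO and 17.2, 15.3, 15.003 and 17.97 CPM with I3C, or 64.2% of the DMSO mean. Its Ahr-/- values were 24.7, 28.5, 21.0 and 22.04 CPM with DMSO and 21.8, 22.2, 15.4 and 17.8 CPM with I3C, which overlapped and averaged 80.2%. At 3 h the I3C mean was 101% of the DMSO mean in Ahr+/+ and 99.2% in Ahr-/- BMMs.

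Immp2l and Pard3b had few counts, with a median of 8 and 10 per library. Pard3b in Ahr+/+ BMMs at 20 h had 10, 10, 14 and 20 counts with DMSO and 0, 2, 0 and 3 with I3C. The Ahr-/- libraries had 13, 6, 15 and 34 counts with DMSO and 1, 1, 2 and 3 with I3C. Every I3C library lay below every DMSO library in both genotypes. At 3 h, Pard3b had 31 counts with DMSO and 17 with I3C in Ahr+/+, and 47 and 15 in Ahr-/- BMMs.

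Immp2l in Ahr-/- BMMs at 20 h had 23, 17, 9 and 10 counts with DMSO and 1, 0, 0 and 1 with I3C. That made 59 counts against 2, without overlap. In Ahr+/+ BMMs it had 4, 7, 2 and 7 counts with DMSO and 1, 4, 0 and 0 with I3C, which overlapped. With DMSO at 20 h, Immp2l was at 0.163 ± 0.082 CPM in Ahr+/+ and 0.470 ± 0.255 CPM in Ahr-/- BMMs (SD, n = 4).

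**Figure D1:**
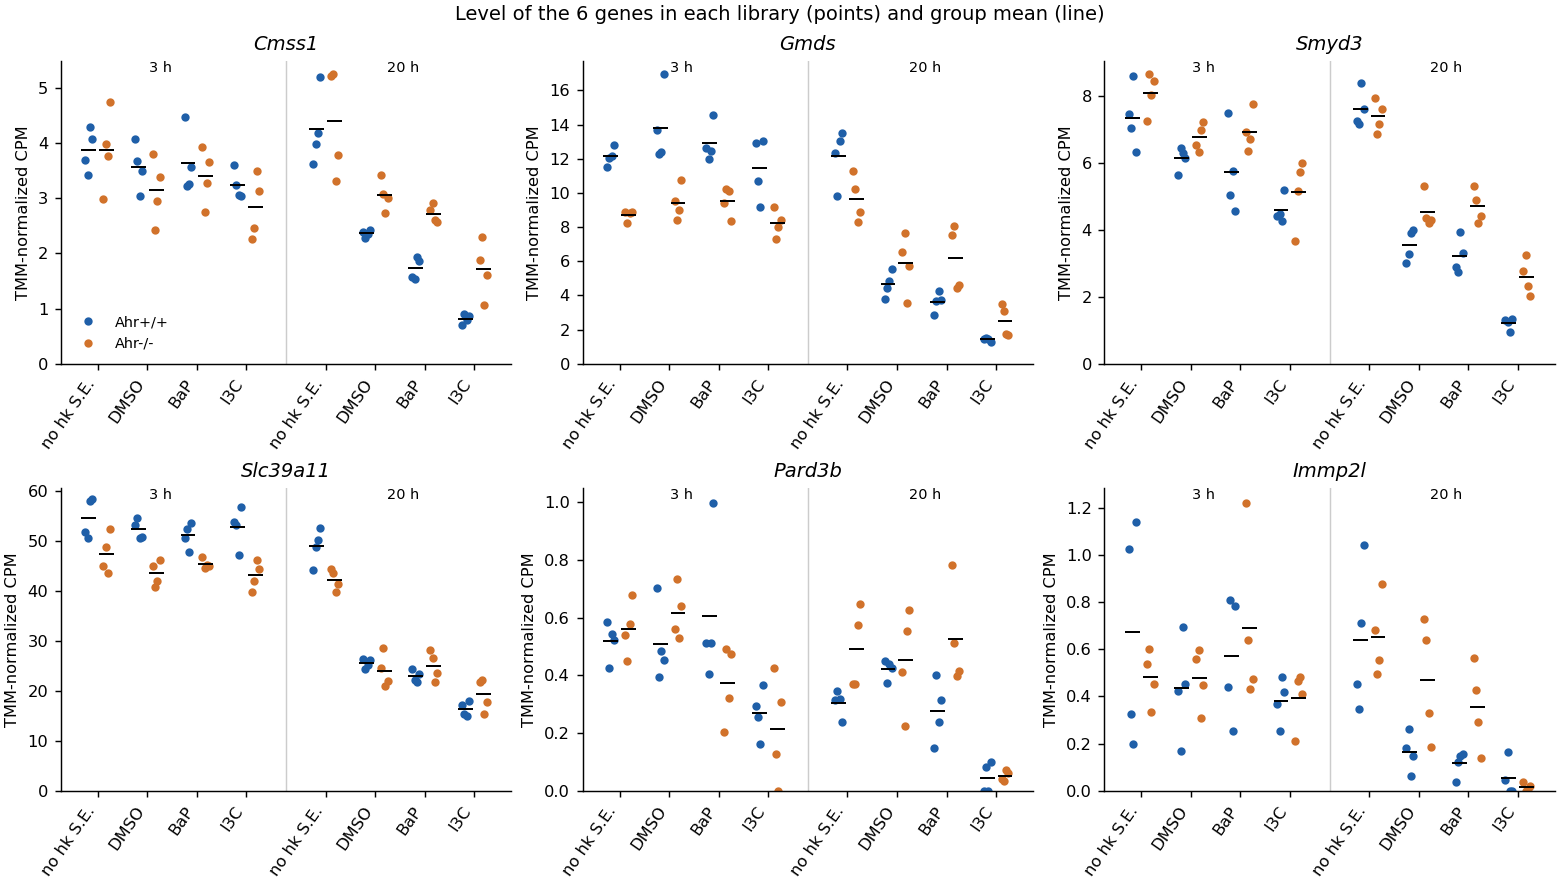
Level of each gene (TMM-normalized CPM, axes from 0) in the 64 libraries, with 4 points per group, the group mean as a line, Ahr+/+ in blue and Ahr-/- in orange. All groups but the unactivated one received hk S.E., and at 20 h the I3C mean is the lowest of the 4 conditions for all 6 genes in each genotype, while at 3 h all I3C libraries lie below all DMSO libraries for Pard3b and Smyd3 alone.

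Over the 16 groups, Ahr+/+ BMMs with I3C at 20 h had the lowest mean of 5 genes, and Immp2l was lowest in Ahr-/- BMMs with I3C at 20 h. The highest means were 4.39 CPM for Cmss1, 8.09 for Smyd3, 13.8 for Gmds, 54.6 for Slc39a11, 0.691 for Immp2l and 0.615 for Pard3b. Per kb of exon, these were 2.20, 0.881, 4.13, 16.3, 0.377 and 0.0468 CPM. When the groups were put in order, most neighbours differed by less than the larger of their SDs. Of 15 steps, 4 exceeded it for Gmds and Smyd3, 3 for Cmss1, 2 for Slc39a11, 1 for Immp2l and 0 for Pard3b.

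The widest step was in Slc39a11, where the group means fell in 2 sets. Its 10 highest groups, the 3 h groups and the unactivated 20 h groups, had means from 42.3 to 54.6 CPM. The other 6, all with hk S.E. for 20 h, had 16.4 to 25.5 CPM. For Smyd3 and Gmds, the 6 groups with hk S.E. for 20 h held 6 of the 7 and 6 of the 6 lowest places.

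On the scale of fitted log2 differences, the median of the 6 genes for I3C against DMSO at 20 h was -1.58 in Ahr+/+ and -1.04 in Ahr-/- BMMs. The medians at 3 h were -0.22 and -0.21. The median over all tested genes was 0.00 at 20 h in both genotypes. Cmss1 was at -1.52 (SE 0.19) in Ahr+/+ and -0.84 (SE 0.17) in Ahr-/- BMMs, and Gmds at -1.72 (SE 0.20) and -1.25 (SE 0.19). Smyd3 was at -1.57 (SE 0.15) and -0.81 (SE 0.14), and Slc39a11 at -0.64 (SE 0.09) and -0.32 (SE 0.09). Whether the difference with I3C itself differed between genotypes was not tested.

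All 4 I3C libraries lay below all 4 DMSO libraries for 5 of the 6 genes in Ahr+/+ BMMs at 20 h, where this held for 3.66% of tested genes. For Ahr-/- BMMs at 20 h it also held for 5, with 1.73% of tested genes. At 3 h it held for Pard3b and Smyd3 alone, in Ahr+/+ (2.64% of tested genes) and in Ahr-/- BMMs (1.87%). Since the genes were chosen for this difference, nothing is read from these counts.

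BaP was compared with the same DMSO libraries, and so is given side by side without a test. All 6 genes of Ahr+/+ BMMs at 20 h were below DMSO with BaP, with a median of -0.37 on the log2 scale. There Cmss1 was at -0.44 (SE 0.17), Gmds at -0.37 (SE 0.18), Pard3b at -0.61 (SE 0.37) and Smyd3 at -0.14 (SE 0.14). The median with BaP in Ahr-/- BMMs at 20 h was 0.05, with Cmss1 at -0.17 and Gmds at 0.07. At 3 h the medians were -0.0034 in Ahr+/+ and 0.05 in Ahr-/- BMMs. All 4 BaP libraries lay below all DMSO libraries for Cmss1 in Ahr+/+ BMMs at 20 h (5.01% of tested genes) and for Pard3b in Ahr-/- BMMs at 3 h (1.38%), and for none of the 6 in the other comparisons (1.73% in Ahr+/+ at 3 h and 0.75% in Ahr-/- at 20 h).

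**Figure D2:**
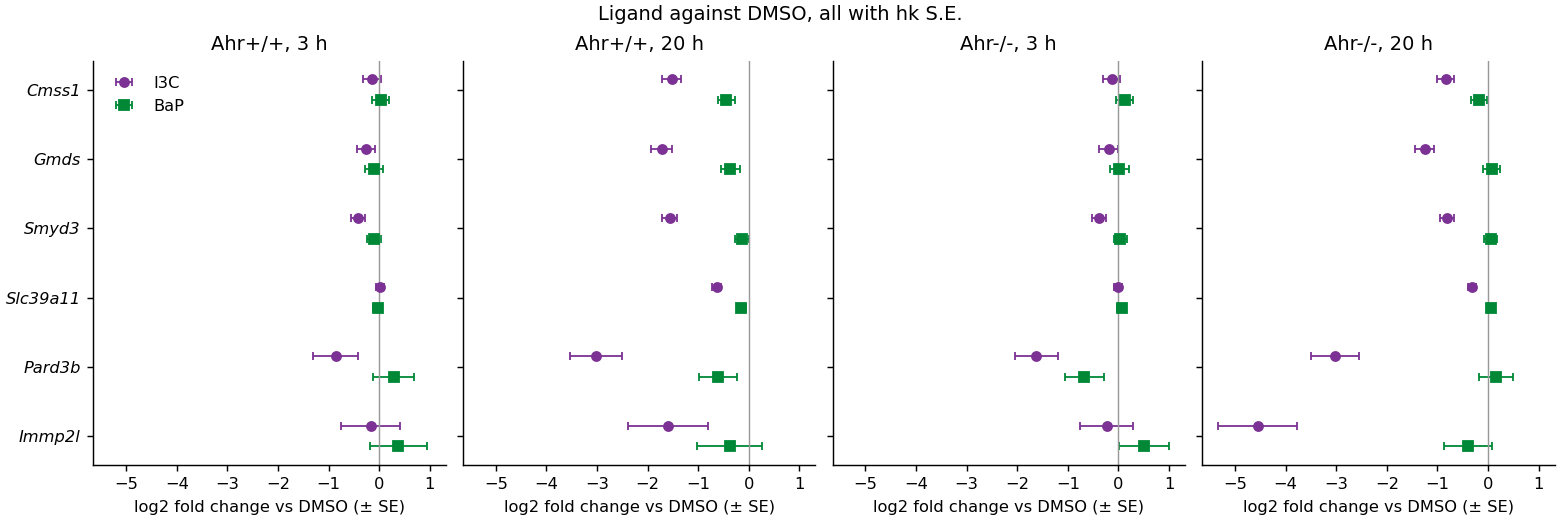
Fitted log2 fold change against DMSO of the 6 genes (x axis, bars are SE), with I3C as circles and BaP as squares, in 4 panels by genotype and time point on one scale, all with hk S.E. At 20 h the I3C values are all below 0 and the BaP values of the same gene lie nearer to 0, and both ligands share the DMSO libraries.

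The other long genes were compared in the same way. Without the 6 genes, 477 tested genes spanned 200 kb or more. Their median with I3C at 20 h was -0.11 in Ahr+/+ and -0.15 in Ahr-/- BMMs, and 68.8% and 80.5% of them were below 0, against 48.5% and 49.9% of all tested genes. At 3 h their medians were -0.04 and -0.10. Genes of 50 to 200 kb had medians of 0.04 and -0.03 at 20 h. All I3C libraries lay below all DMSO libraries at 20 h for 75 (15.7%) of the 477 in Ahr+/+ and 48 (10.1%) in Ahr-/- BMMs. This held for 3.66% and 1.73% of all tested genes, and for 6.40% and 2.69% of those under 10 kb. It also held for 18.2% and 8.09% of processed pseudogenes (intronless copies of mRNAs), of which 75.1% and 71.6% were below 0. Lower values with I3C were thus not particular to long genes. With BaP at 20 h the median of the 477 was 0.08 for Ahr+/+ and 0.02 for Ahr-/- BMMs.

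Among all 483 genes of that span, the I3C value of Pard3b ranked 1 from the bottom in Ahr+/+ BMMs at 20 h, Gmds 12, Immp2l 16, Smyd3 19, Cmss1 22 and Slc39a11 76. In Ahr-/- BMMs, Immp2l ranked 1, Pard3b 2, Gmds 30, Cmss1 48, Smyd3 50 and Slc39a11 133. The 6 genes were therefore not the 6 lowest long genes, and Slc39a11 lay well inside the class.

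**Figure D3:**
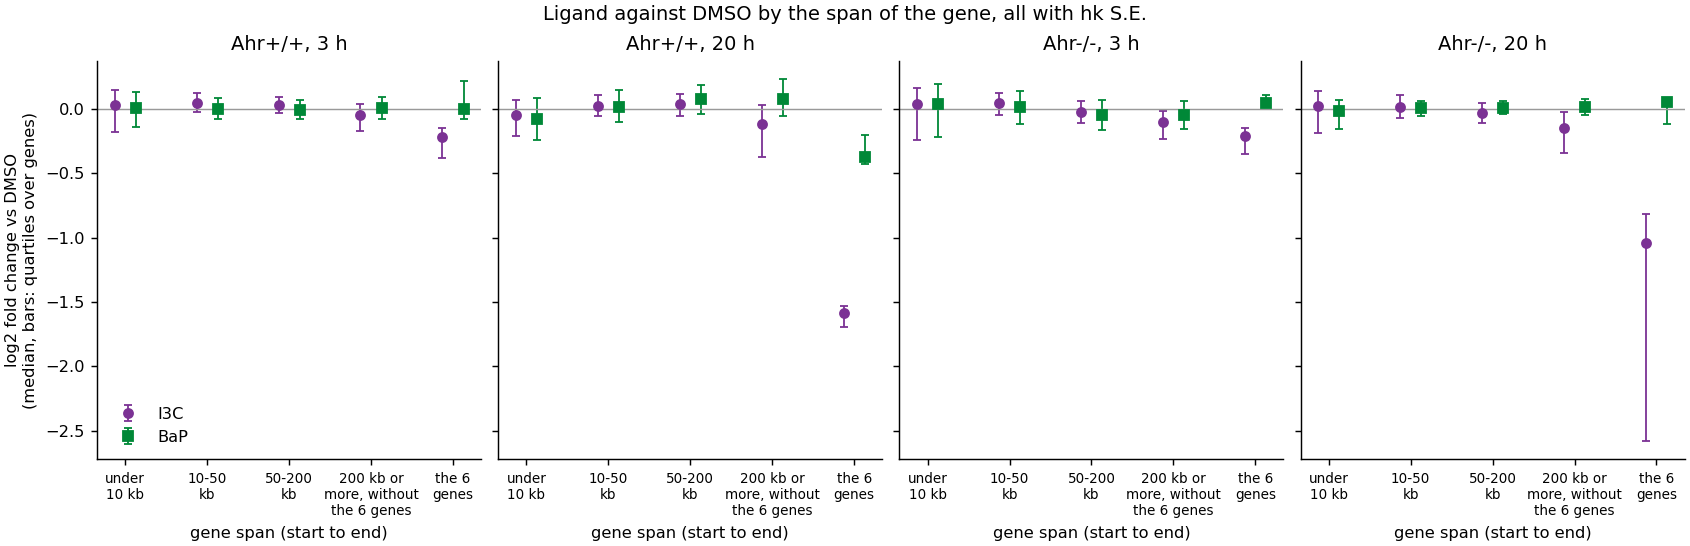
Median log2 fold change against DMSO (y axis, bars from the lower to the upper quartile over genes) of tested genes grouped by span, with I3C as circles and BaP as squares, in 4 panels by genotype and time point. At 20 h the I3C median of the 477 other genes of 200 kb or more was -0.11 in Ahr+/+ and -0.15 in Ahr-/- BMMs, while the 6 genes, chosen for low I3C values, had -1.58 and -1.04.

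Comparisons that use neither the I3C libraries nor the DMSO libraries with hk S.E. did not enter the choice of the genes, and these were tested with edgeR's quasi-likelihood test over all 14537 genes, with Benjamini-Hochberg adjustment and a threshold of 0.01. In unactivated BMMs, none of the 6 passed between genotypes at 3 h (1.21% of tested genes did) or 20 h (0.702%), or between 20 h and 3 h in Ahr+/+ (6.07%) or Ahr-/- BMMs (6.98%). DESeq2 called none of the 6 either. At an unadjusted p under 0.05 there were 2, 2, 1 and 0 of the 6, where 9.99%, 12.5%, 24.2% and 24.5% of tested genes had one. Of these 24 tests, the lowest unadjusted p was that of Gmds at 3 h, 0.00797, with a log2 difference of -0.48 (SE 0.17) in Ahr-/- and an adjusted p of 0.184.

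BMMs with BaP and hk S.E. were then set against unactivated BMMs, which compares both agents at once with neither. In Ahr+/+ BMMs at 20 h, 5 of the 6 genes were lower, where 61.7% of tested genes passed and 31.1% were lower. Cmss1 was at 3.63, 3.99, 4.19 and 5.19 CPM without activation and fell by 1.30 on the log2 scale (SE 0.16, adjusted p = 5.51e-10). Gmds was at 12.3, 9.80, 13.1 and 13.5 CPM without activation and at 2.86, 3.66, 4.27 and 3.76 CPM with BaP and hk S.E., and fell by 1.74 (SE 0.18, adjusted p = 1.60e-12). Slc39a11 fell by 1.09 (SE 0.09, adjusted p = 1.59e-16), from 44.2, 48.8, 50.1 and 52.5 CPM to 24.4, 22.2, 21.8 and 23.4 CPM. Smyd3 fell by 1.23 (SE 0.13, adjusted p = 6.59e-12), from 7.25, 7.16, 8.38 and 7.59 CPM to 2.90, 2.73, 3.94 and 3.31 CPM. Immp2l fell by 2.45 (SE 0.51, adjusted p = 3.55e-05), from 13, 11, 20 and 309 counts to 1, 3, 5 and 7, where the library with 309 was sequenced far deeper than the rest. In these 5 genes each activated library lay below each unactivated one in CPM, which held for 34.6% of tested genes.

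Pard3b did not pass in that comparison, with a log2 difference of -0.08 (SE 0.37, adjusted p = 0.854). It had 100 counts over the unactivated and 36 over the BaP libraries, and means of 0.305 and 0.275 CPM. Among all 483 long genes, 68.1% passed in that comparison, with 182 lower and 147 higher. Of all tested genes, 61.7% passed, with 31.1% lower and 30.6% higher. With DMSO and hk S.E., the Ahr+/+ means at 20 h were 55.6% of the unactivated mean for Cmss1, 38.4% for Gmds and 52.1% for Slc39a11. They were 46.7% for Smyd3, 25.6% for Immp2l and 139% for Pard3b. With BaP and hk S.E. they were 40.6%, 29.9%, 46.9%, 42.4%, 18.2% and 90.4% in the same order. The DMSO libraries entered the choice of the 6 genes, so these are values without a test.

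In Ahr-/- BMMs at 20 h, 4 of the 6 genes were lower with BaP and hk S.E. than without activation, where 55.6% of tested genes passed and 26.9% were lower. Slc39a11 fell by 0.75 (SE 0.09, adjusted p = 4.77e-11), Cmss1 by 0.68 (SE 0.16, adjusted p = 0.000177), Smyd3 by 0.66 (SE 0.13, adjusted p = 1.50e-05) and Gmds by 0.65 (SE 0.17, adjusted p = 0.00105) on the log2 scale. Cmss1 was at 5.22, 5.26, 3.32 and 3.79 CPM without activation. In these 4 genes the groups did not overlap, as in 25.4% of tested genes with all activated libraries lower. Immp2l was at -0.95 (SE 0.45, adjusted p = 0.0582) and Pard3b at 0.03 (SE 0.33). The call of Gmds was lost without Ahr-/- BaP replicate 3 (adjusted p = 0.0121) or replicate 4 (0.0119), and when only these groups were fitted (0.0248). Whether this difference itself differed between genotypes was not tested.

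At 3 h none of the 6 passed between BaP with hk S.E. and unactivated BMMs, in Ahr+/+ (55.7% of tested genes did) or Ahr-/- BMMs (57.4%). DESeq2 called none either. An unadjusted p under 0.05 was found for 1 and 0 of the 6, and for 66.2% and 68.2% of tested genes. The log2 differences in Ahr+/+ ran from -0.36 for Smyd3 (SE 0.14, adjusted p = 0.0200) to 0.26 for Pard3b. These calls depended on the scaling. With library size only, 4 of the 6 in Ahr+/+ and 5 in Ahr-/- BMMs were lower, and the median over all tested genes moved from -0.12 to -0.80 in Ahr+/+ and from -0.11 to -0.78 in Ahr-/- BMMs. Gmds then turned from 0.09 to -0.59 in Ahr+/+ and from 0.13 to -0.54 in Ahr-/- BMMs, which is above that median. Without Ahr+/+ BaP replicate 1 at 3 h, which had Smyd3 at 7.48 CPM where the other 3 libraries had 4.56 to 5.74 CPM, Smyd3 passed (-0.47, adjusted p = 0.00403).

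Between genotypes, BMMs with BaP and hk S.E. for 20 h had 3 of the 6 genes higher in Ahr-/-, where 23.3% of tested genes passed and 11.5% were higher. Gmds was at 0.75 (SE 0.18, adjusted p = 0.000783), Cmss1 at 0.64 (SE 0.17, adjusted p = 0.00179) and Smyd3 at 0.54 (SE 0.13, adjusted p = 0.00129) on the log2 scale. These 3 did not overlap between the genotypes, with the lowest Ahr-/- library of Smyd3 at 4.19 CPM and the highest Ahr+/+ library at 3.94 CPM. All Ahr-/- libraries lay above all Ahr+/+ libraries for 15.1% of tested genes. Immp2l was at 1.48 (SE 0.56, adjusted p = 0.0351), Pard3b at 0.91 (SE 0.35, adjusted p = 0.0414) and Slc39a11 at 0.13 (SE 0.09, adjusted p = 0.278). Immp2l lies 5.49 Mb from Ahr, and the part of this nearness in its differences between genotypes was not tested. All 3 calls were lost when only these 2 groups were fitted, and without Ahr+/+ BaP replicate 2 only Gmds passed, with Cmss1 at an adjusted p of 0.0100 and Smyd3 at 0.0107. Gmds in turn lost its call without Ahr-/- BaP replicate 2 (0.60, adjusted p = 0.0128). At 3 h none of the 6 passed (4.88% of tested genes did) with edgeR or DESeq2, and 1 had an unadjusted p under 0.05, as 24.8% of tested genes did.

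**Figure D4:**
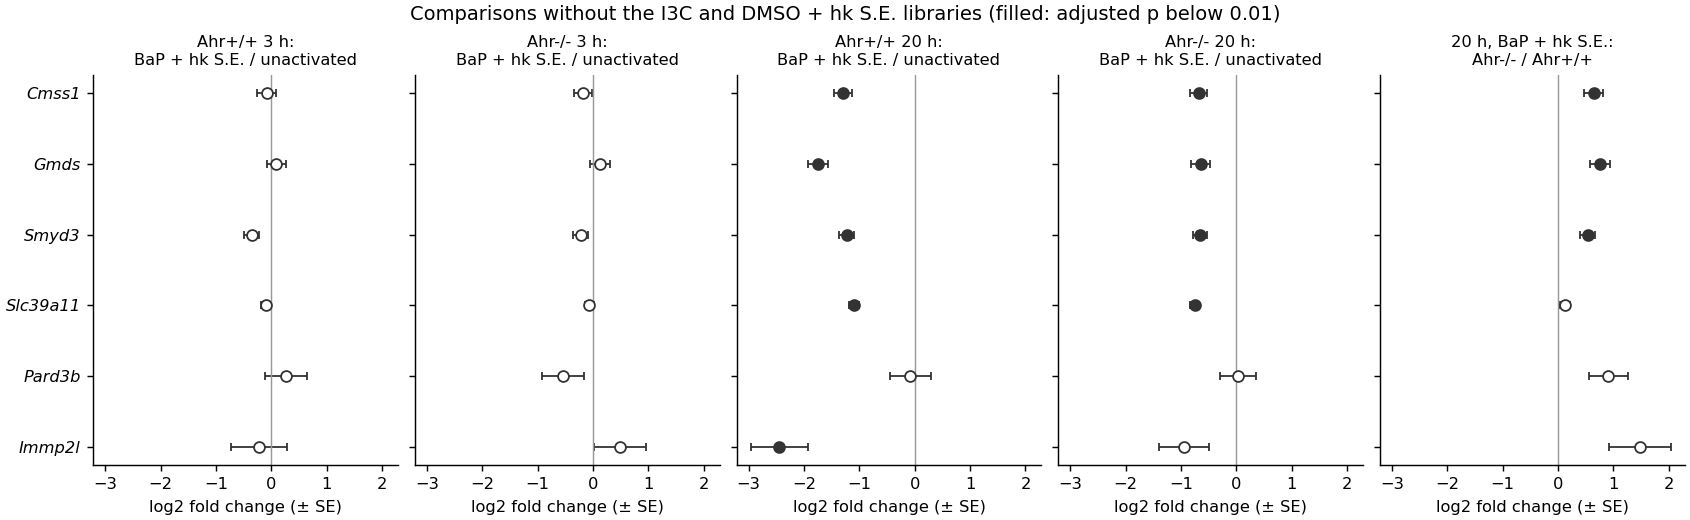
Log2 fold change (x axis, bars are SE) of the 6 genes in 5 comparisons that used no I3C library and no DMSO library with hk S.E., with filled points where the adjusted p of edgeR was below 0.01. At 3 h no point is filled, at 20 h 5 genes in Ahr+/+ and 4 in Ahr-/- BMMs were lower after BaP and hk S.E., and 3 were higher in Ahr-/- than in Ahr+/+ BMMs.

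Relatives of the 6 genes in their pathways were read from lists that were set up with earlier results known. For BaP and hk S.E. against unactivated BMMs at 20 h, 30.6% of all tested genes were higher and 31.1% lower in Ahr+/+, and 28.7% and 26.9% in Ahr-/- BMMs, and the counts of these short lists are read against those shares. Of 9 tested genes of fucose and GDP-sugar metabolism, 4 were higher and 1 lower in Ahr+/+ BMMs with BaP and hk S.E. at 20 h than in unactivated ones, and 4 were higher in Ahr-/- BMMs. Gmppb, which makes GDP-mannose, the substrate of Gmds, rose by 1.276 (SE 0.08) in Ahr+/+ and 1.02 (SE 0.08) in Ahr-/- BMMs. Of 17 zinc transporters, 5 were higher and 3 lower in Ahr+/+ BMMs, and 6 and 4 in Ahr-/- BMMs. The zinc importer Slc39a8 was at -2.25 (SE 0.21) in Ahr+/+ and Slc39a14 at 0.91 (SE 0.14). Gmds and Slc39a11 themselves were lower in both genotypes.

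Of 7 tested genes of mitochondrial protein processing, 3 were higher in each genotype, and Yme1l1, a protease of the inner membrane, was at 1.19 (SE 0.26) in Ahr+/+ BMMs. Of 4 polarity genes, Pard6g was lower in both genotypes (-2.50, SE 0.49, in Ahr+/+), and Pard6a and Cdc42 were higher in Ahr+/+. Of 3 SMYD methyltransferases besides Smyd3, Smyd2 (-1.52, SE 0.12) and Smyd4 (-0.90, SE 0.17) were lower in Ahr+/+, and Smyd4 was lower and Smyd5 higher in Ahr-/- BMMs. In the list of 6 factors of small subunit assembly with Filip1l as the neighbour of Cmss1, 3 of 7 were higher and 2 lower in Ahr+/+, and all 7 were higher in Ahr-/- BMMs.

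Between genotypes with BaP and hk S.E. at 20 h, 11.5% of all tested genes were higher and 11.8% lower in Ahr-/-. Here 4 of the 7 genes of that last list were higher in Ahr-/- than in Ahr+/+ BMMs, with Rrp12, a factor of ribosomal subunit export, at 1.29 (SE 0.12). Of the SMYD genes, Smyd2 was higher by 1.31 (SE 0.12) and Smyd5 by 0.91 (SE 0.13). Of the zinc transporters, 1 was higher and 2 lower, of the fucose genes 1 was higher and 1 lower, of the polarity genes 1 was lower, and of the mitochondrial genes none passed. With I3C against DMSO at 20 h, the medians of these lists ran from -0.17 to 0.04 in Ahr+/+ and from -0.03 to 0.13 in Ahr-/- BMMs, as values without a test.

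The genes whose level was most alike to that of the 6 were then listed. Likeness was Pearson's r of log2 CPM with the mean of the 6 genes, each centred, over the 64 libraries. These differ in depth and include the I3C and DMSO libraries by which the 6 genes were chosen. The first 10 of the other genes were Bbs9 (r = 0.90), Bcas3, Exoc4, Ppm1l, Diaph3, Dock1, Trappc9, Ank2, Suclg2 and Prim2 (r = 0.85), with spans from 216 to 725 kb. All 10 were below DMSO with I3C at 20 h in both genotypes, which the choice of the 6 builds into the list, so nothing is read from it or from the spans. Ank2, an adaptor between membrane and cytoskeleton, was at -2.001 in Ahr+/+ and -1.09 in Ahr-/- BMMs, and Diaph3, a formin, at -1.71 and -1.72.

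When group means were removed and only differences between libraries of the same group were left, the 10 most alike genes were others. They were led by Nucb2 (r = 0.63), spanned 1.02 to 103 kb, and none reached 200 kb. With I3C at 20 h, 4 of these 10 were below DMSO in both genotypes. The nearest single gene was Wwox for Pard3b (r = 0.75), Msra for Slc39a11 (0.96), Slc39a11 for Gmds (0.94), Gmds for Immp2l (0.80), and Cmss1 and Smyd3 for each other (0.93). Between pairs of the 6, r over the libraries ran from 0.51 to 0.94, and from -0.22 to 0.62 once group means were removed.

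The share of read pairs that lay on no gene was used as a rough sign of unspliced or genomic reads in a library. With the strict, stranded counting of the authors, this share also holds pairs only partly on an exon or on its opposite strand. It ran from 3.41% to 5.92% with a median of 4.17%. In Ahr+/+ BMMs at 20 h it was 4.25% ± 0.60 with I3C and 4.61% ± 0.72 with DMSO, and in Ahr-/- BMMs 3.801% ± 0.34 and 4.31% ± 0.34 (SD, n = 4). At 3 h it was 3.94% ± 0.14 and 4.15% ± 0.28 in Ahr+/+, and 4.68% ± 0.37 and 5.28% ± 0.43 in Ahr-/- BMMs. The I3C mean was below the DMSO mean in all 4 settings, and the groups overlapped in each. Taken by replicate number, which the labels do not tie to a mouse, the I3C library had the lower share in 4 of 4 pairs in Ahr+/+ at 20 h and in Ahr-/- at 3 h and at 20 h, and in 2 of 4 in Ahr+/+ at 3 h. The pair differences at 20 h ran from -0.723 to -0.0716 percentage points in Ahr+/+ and from -0.701 to -0.359 in Ahr-/- BMMs. With BaP the means were 3.94%, 4.64%, 4.86% and 3.95% in Ahr+/+ at 3 h and 20 h and in Ahr-/- at 3 h and 20 h.

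In the 10 comparisons without the I3C and DMSO hk S.E. libraries, this share was compared by an exact two-sided permutation test with adjustment. The exact permutation test of 4 against 4 cannot go below p = 0.0286. This floor lies above the threshold used for the genes, so no difference in the share could have passed. Nothing is therefore read from the lack of a call, and the shares are given as values. The floor was reached between genotypes with BaP and hk S.E. at 3 h (exact permutation p = 0.0286, adjusted p = 0.286). There the share was 4.86% ± 0.25 in Ahr-/- and 3.94% ± 0.29 in Ahr+/+ BMMs without overlap. None of the 6 genes passed in that comparison. At 20 h, where 5 genes were lower with BaP and hk S.E. in Ahr+/+ BMMs, the share was 4.64% ± 0.74 with and 4.41% ± 0.73 without activation (exact permutation p = 0.571, adjusted p = 0.816).

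Within groups, the level of each gene was fitted on this share, again over all tested genes with edgeR. Per percentage point, Smyd3 was at -0.21 on the log2 scale (SE 0.05, adjusted p = 0.00886), and passed as the only 1 of the 6, where 1.49% of tested genes passed and 1.31% with a slope below 0. Cmss1 was at -0.19 (SE 0.07, adjusted p = 0.0795), Gmds at -0.19 (SE 0.07, adjusted p = 0.138), Slc39a11 at -0.09 (SE 0.04, adjusted p = 0.120), Immp2l at -0.19 (SE 0.24, adjusted p = 0.688) and Pard3b at 0.04 (SE 0.17, adjusted p = 0.944). The median slope was 0.04 for the other 477 long genes and 0.00 for all tested genes. The call of Smyd3 was lost when any 1 of 41 of the 64 libraries was left out, and without the I3C and DMSO hk S.E. libraries, where its slope was -0.20.

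The mean shares of the I3C and DMSO groups differed by at most 0.601 percentage points. With the share as a term in the fit, the median of the 6 genes for I3C against DMSO at 20 h was -1.64 in Ahr+/+ and -1.14 in Ahr-/- BMMs. For BaP and hk S.E. at 20 h, Cmss1 was then 0.52 higher in Ahr-/- than in Ahr+/+ BMMs and no longer passed.

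**Figure D5:**
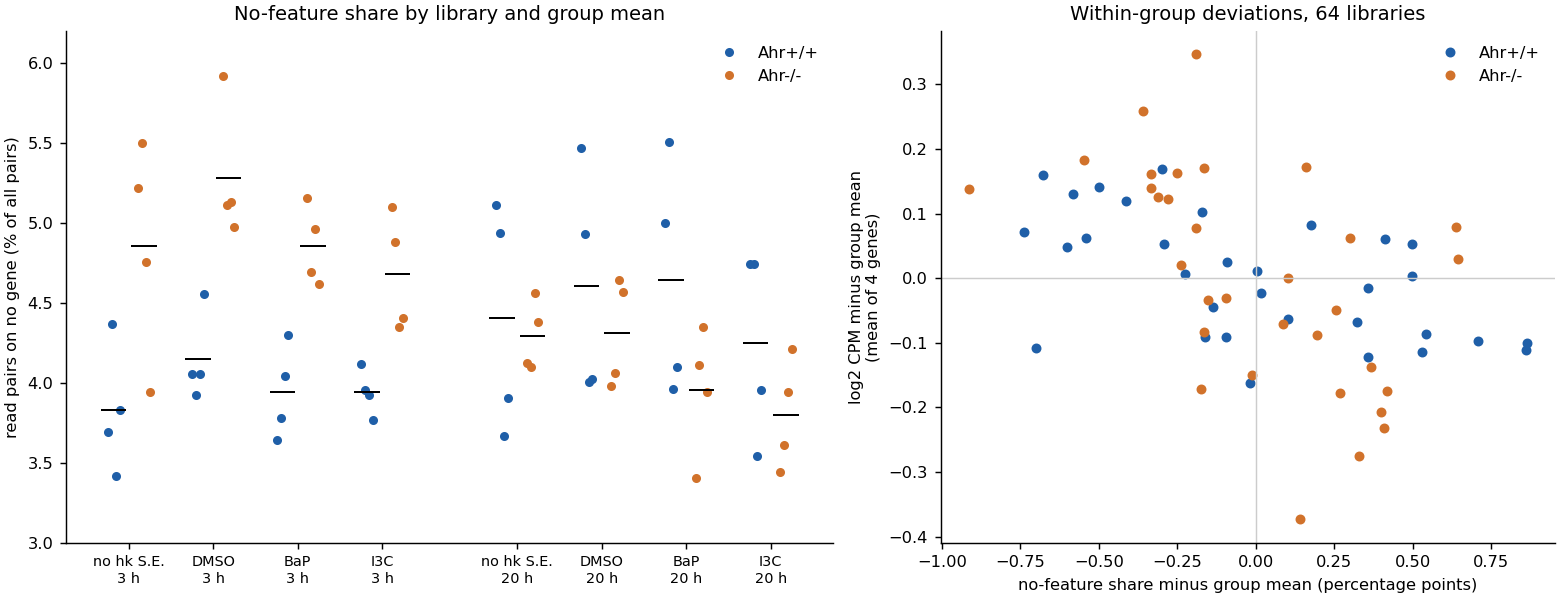
Left, the share of read pairs on no gene (%) in each library, with the group mean as a line, by condition and time point (y axis from 3%). Right, the deviation of this share from its group mean (x axis, percentage points) against the deviation of log2 CPM averaged over Cmss1, Gmds, Smyd3 and Slc39a11 (y axis) for the 64 libraries. The I3C means lie below the DMSO means with overlapping points. The slopes of these 4 genes on the share are all below 0, but only that of Smyd3 passed. Immp2l (slope -0.19) and Pard3b (slope 0.04) are not drawn.

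The share of counts on processed pseudogenes, which are intronless copies of mRNAs, ran from 0.341% to 0.719%. In Ahr+/+ BMMs at 20 h it averaged 0.364% with I3C and 0.420% with DMSO, and in Ahr-/- BMMs 0.444% and 0.495%. The 1396 tested processed pseudogenes had a median log2 difference with I3C at 20 h of -0.32 for Ahr+/+ and -0.23 for Ahr-/- BMMs, and at 3 h, where the median of the 6 genes was near -0.2, of -0.32 and -0.35. With this share in the fit, the median of the 6 genes was -1.43 in Ahr+/+ BMMs at 20 h.

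Libraries held 12152496 to 50644601 counts on genes, except for Ahr+/+ unactivated replicate 4 at 20 h with 233047331. Without it the same 5 genes were lower with BaP and hk S.E. in Ahr+/+ BMMs at 20 h. Reads of Ahr were found in Ahr-/- BMMs too, with 24.8 CPM against 13.03 CPM in Ahr+/+ at 20 h with DMSO, so a count over all its exons does not check the deletion. The AhR target Ahrr was at 5.63 CPM with DMSO, 16.01 with I3C and 18.7 with BaP in Ahr+/+ at 20 h, and at 0.737, 0.671 and 0.911 CPM in Ahr-/- BMMs. All 8 macrophage markers passed the filter, with a summed level of 18496 to 43740 CPM. Summed levels were at most 62.3 CPM for neutrophil markers (2 of 5 passed), 11.1 for fibroblasts (3 of 6), 3.52 for T cells (1 of 4), 2.43 for dendritic cells (2 of 4) and 1.26 for B cells (0 of 4), and all 3 erythroid markers were at 0. At 20 h these sums overlapped between I3C and DMSO in both genotypes. They did not all overlap in the comparisons tested above. With BaP and hk S.E. at 20 h the macrophage sum was 18496 to 22439 CPM in Ahr+/+ and 22611 to 31354 CPM in Ahr-/- BMMs, against 34197 to 37377 and 37210 to 43740 CPM without activation. The T cell sum was 0.405 to 0.520 and 0.0997 to 0.315 CPM, against 2.20 to 3.52 and 2.89 to 3.08 CPM. Both sums thus lay apart between activated and unactivated BMMs. Between genotypes they lay apart with BaP and hk S.E. and overlapped without activation. In Ahr+/+ BMMs the B cell sum was also lower with BaP and hk S.E., at 0.0297 to 0.110 against 0.184 to 1.26 CPM. The fibroblast sum was higher there, at 1.54 to 2.45 against 0.491 to 1.20 CPM, and so was the dendritic cell sum, at 0.640 to 1.75 against 0.287 to 0.532 CPM. The latter was 0.166 to 0.336 CPM with BaP and hk S.E. in Ahr-/- BMMs. The part of these shifts in the calls of the 6 genes was not tested. In bulk RNA, fewer cells of a type and less RNA per cell cannot be told apart.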

How the data were processed

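RNA of 64 libraries was sequenced as stranded read pairs. The authors trimmed the reads, aligned them with HISAT2 2.1.0 to mm10, and counted pairs on GENCODE exons with HTSeq 0.9.1, so the deposited counts are raw. The deposited log2 values, which the authors derived from these counts by variance stabilization in DESeq2, served only as an alternative. The 5 entries that name no gene were left out of library sizes, and the share of pairs on no gene was taken from them. Counts were tested with edgeR 4.0.16 (R 4.3.3, limma 3.58.1) in one fit of 16 group means (minimum count 10, 14537 genes, 48 residual degrees of freedom, adjusted p below 0.01). The share of pairs on no gene was compared by exact permutation tests. Positions, spans and exons came from a GENCODE annotation of GRCm38 close to but not the one used for counting. The 6 genes, the gene lists and the tests were chosen with earlier results of these data known. Besides the 6, genes were named as most alike by r, or from the lists where they passed the test or neighbour a member. In simulated counts of 14537 genes for BaP with hk S.E. against unactivated Ahr+/+ BMMs at 20 h, 66% of 200 genes changed by a log2 of 1 were recovered, with 2 false calls. The simulation held no other difference between groups and no likeness by replicate number, where 61.7% of genes passed in the data. Its recovery and false calls hold for that simpler setting only. Alternatives were DESeq2 (1.42.0), other scalings and filters, covariates, replicate blocks and leaving out each library.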

Additional observations from a re-analysis of the deposited data

Results flagged for a closer look

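The level of each of the 6 genes and the share of read pairs on no gene were checked in all 16 groups for a library whose gap to the nearest other exceeded the 95% critical value of Dixon for 4 values, as a share of the range of its group (112 checks). Chance marks about 1 in 20 such groups, and 3 were marked. Gmds in unactivated Ahr-/- BMMs at 3 h was lowest in replicate 2 with 8.23 CPM, where the others had 8.82 to 8.90 CPM. Smyd3 in Ahr-/- BMMs with DMSO and hk S.E. at 20 h was highest in replicate 1 with 5.32 CPM, where the others had 4.19 to 4.35 CPM. The share of pairs on no gene in Ahr-/- BMMs with DMSO and hk S.E. at 3 h was highest in replicate 1 with 5.92%, where the others had 4.97% to 5.13%.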

How the results depend on the processing

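Of the counts of genes that passed, 67 of 80 under other settings were within 1.5 times the reported one. With library size only, 4 of the 6 passed at 3 h with BaP and hk S.E. against unactivated Ahr+/+ BMMs and 5 in Ahr-/- BMMs, where Gmds reversed to -0.59 and -0.54 on the log2 scale. The 3 calls between genotypes at 20 h became 0 when only the groups compared were fitted. Leaving out 1 library gave 0 to 1 for BaP with hk S.E. against unactivated Ahr+/+ BMMs at 3 h, 3 to 4 in Ahr-/- BMMs at 20 h, 1 to 3 between genotypes at 20 h and 0 to 1 for the slope on the share of pairs on no gene. That slope count was 0 with DESeq2 size factors, without the filter, without the I3C and DMSO hk S.E. libraries, and with the shares not aligned, of low quality or aligned to several places, where Smyd3 reversed to 0.094. With the share ambiguous between genes, 3 passed, and Cmss1 (1.57), Gmds (2.18), Slc39a11 (0.89) and Smyd3 (0.94) reversed, in a fit that called 7810 genes. The cause was not tested.

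Medians of the 6 genes for I3C moved with the pseudogene share as a covariate to -0.050 in Ahr+/+ BMMs at 3 h and -1.43 at 20 h, and that for BaP in Ahr+/+ BMMs at 20 h to -0.19. On the authors' VST values, whose transformation shrinks differences of low counts, they were -0.66 and -0.52 for I3C at 20 h in Ahr+/+ and Ahr-/- and -0.15 for BaP in Ahr+/+ BMMs. Leaving out 1 library gave medians for I3C from -0.36 to -0.17 in Ahr+/+ BMMs at 3 h, -1.67 to -1.49 in Ahr+/+ at 20 h and -1.19 to -0.94 in Ahr-/- BMMs at 20 h, and the low counts of Immp2l and Pard3b limit these.

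The labels tie no replicate number to a mouse. With group means removed, libraries of the same number correlated above 0.1 in 24 of 24 pairs in Ahr-/- BMMs at 20 h. It was 21 of 24 in Ahr-/- at 3 h, 21 of 24 in Ahr+/+ at 20 h and 11 of 24 in Ahr+/+ at 3 h. Of 72 pairs with different numbers, 24, 25, 2 and 0 did so in the same order. Libraries of the same number were thus more alike, and the p-values of the main fit, which had no pairs, leave this out. With a replicate block within genotype and time point, 1 gene (Smyd3) passed at 3 h in Ahr+/+ BMMs with BaP and hk S.E. against unactivated ones, the slope count was 0 with this block and with one within genotype, and in Ahr-/- BMMs at 20 h the count stayed at 4. No other count of genes that passed moved with a block. A block could not be fitted for comparisons between genotypes, which share no mouse. The scaling by library size only and the block within time point were chosen after the data were seen.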
